A study of Homo sapiens with 48 samples.

Results

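EZH2, SMARCA4, DNMT1 and HDAC1 encode enzymes that write, erase or move features of chromatin. They are 4 of the 327 genes whose knockouts were measured in a pooled CRISPR screen of squamous carcinoma cells. They were chosen by their log fold changes in this same screen, because these differed in sign or size between cell lines and between tumors and culture. All values of these 4 genes in all 5 tables are therefore given as a description with no test. RefSeq places EZH2 on chromosome 7, SMARCA4 and DNMT1 on chromosome 19 and HDAC1 on chromosome 1. The positions and sequences of the guide RNAs were not used here.

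Guides were followed in 3 human lines that carried the Cas9 nuclease, the enzyme that cuts where a guide directs it. A431 came from an epidermoid carcinoma, CAL27 from a carcinoma of the tongue and SCC13 from one of the skin. The later samples were 8 tumors and 2 cultures of A431, 10 tumors and 2 cultures of CAL27 and 16 tumors of SCC13, each group set against 2 initial samples frozen after puromycin selection. Tumors grew for about 2 months in the flanks of SHO mice (A431, CAL27) or of NOD scid gamma mice, which lack the common cytokine receptor chain (SCC13), and cultures were kept for 3 weeks. Every group, initial cells included, carried Cas9 and guide virus added at a multiplicity of infection of 0.3. Both host strains lack T and B cells, and which tumors grew in the same mouse is not stated.

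EZH2 is the methyltransferase of Polycomb repressive complex 2, which marks histone H3 at silenced genes. SMARCA4, also called BRG1, is an ATPase of the SWI/SNF remodelling complexes, which slide and evict nucleosomes and oppose Polycomb at many genes. DNMT1 copies DNA methylation onto the new strand behind the replication fork. HDAC1 removes acetyl groups from histones within the Sin3, NuRD and CoREST corepressor complexes, where the closely related HDAC2 can often stand in for it.

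The deposited values are log fold changes per gene, with the non-targeting guides at 0 in every value column. Their log base is unknown, and they are quoted in log units without conversion to folds. A value column stands for 1 tumor or culture, and a negative value is read as loss of the knockout since the initial cells. This reading was made with the low values of many DNA replication genes in view. The fall of those genes, given below, is thus no separate support for it. Values below are relative to the median of the 327 genes in the same column unless they are called deposited. This median lay below the non-targeting guides in 37 of the 38 columns and above them, at 0.53 log units, in column 3 of the SCC13 tumors. The SD over genes was 0.50 to 0.59 in cultures, 0.42 to 1.34 in A431 tumors, 1.09 to 2.23 in CAL27 tumors and 1.89 to 2.87 in SCC13 tumors. A log unit is thus a smaller step in most tumor columns than in culture. SCC13 columns 14 and 16 had a correlation across genes of 0.79, against at most 0.69 for any other pair of SCC13 tumors. Depth is unknown, since the tables hold no counts.

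Many SCC13 values lay at a floor, which was taken to be reached when a gene shared its exact difference between 2 tumors with at least 3 other genes. The cause of the floor was not tested. Between 8 and 145 genes per SCC13 tumor were at the floor, and a value there is a bound on the loss. DNMT1 was at the floor in 14 of 16 SCC13 tumors, EZH2 in 4, HDAC1 in 2 and SMARCA4 in 0. None of the 4 genes was at the floor in A431 or CAL27.

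EZH2 stood on opposite sides of the median gene in different lines. Its knockout had the lowest mean of all genes in A431 culture, the 4th highest in CAL27 tumors, and lay near the median gene in CAL27 culture. The 2 A431 cultures stood at -2.30 and -2.76 log units, and the 2 CAL27 cultures at -0.13 and -0.16. The 8 A431 tumors ran from -2.19 to 0.12 with a median of -0.87, and 7 of them lay below the median gene. All A431 tumors were thus above both A431 cultures while most remained on the side of loss. The 10 CAL27 tumors ran from 0.48 to 3.82 with a median of 2.64, and every one lay above the median gene, as 6.73% of all genes did in that table. The 16 SCC13 tumors ran from -5.51 to 1.48 with a median of -0.40.

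**Figure D1:**
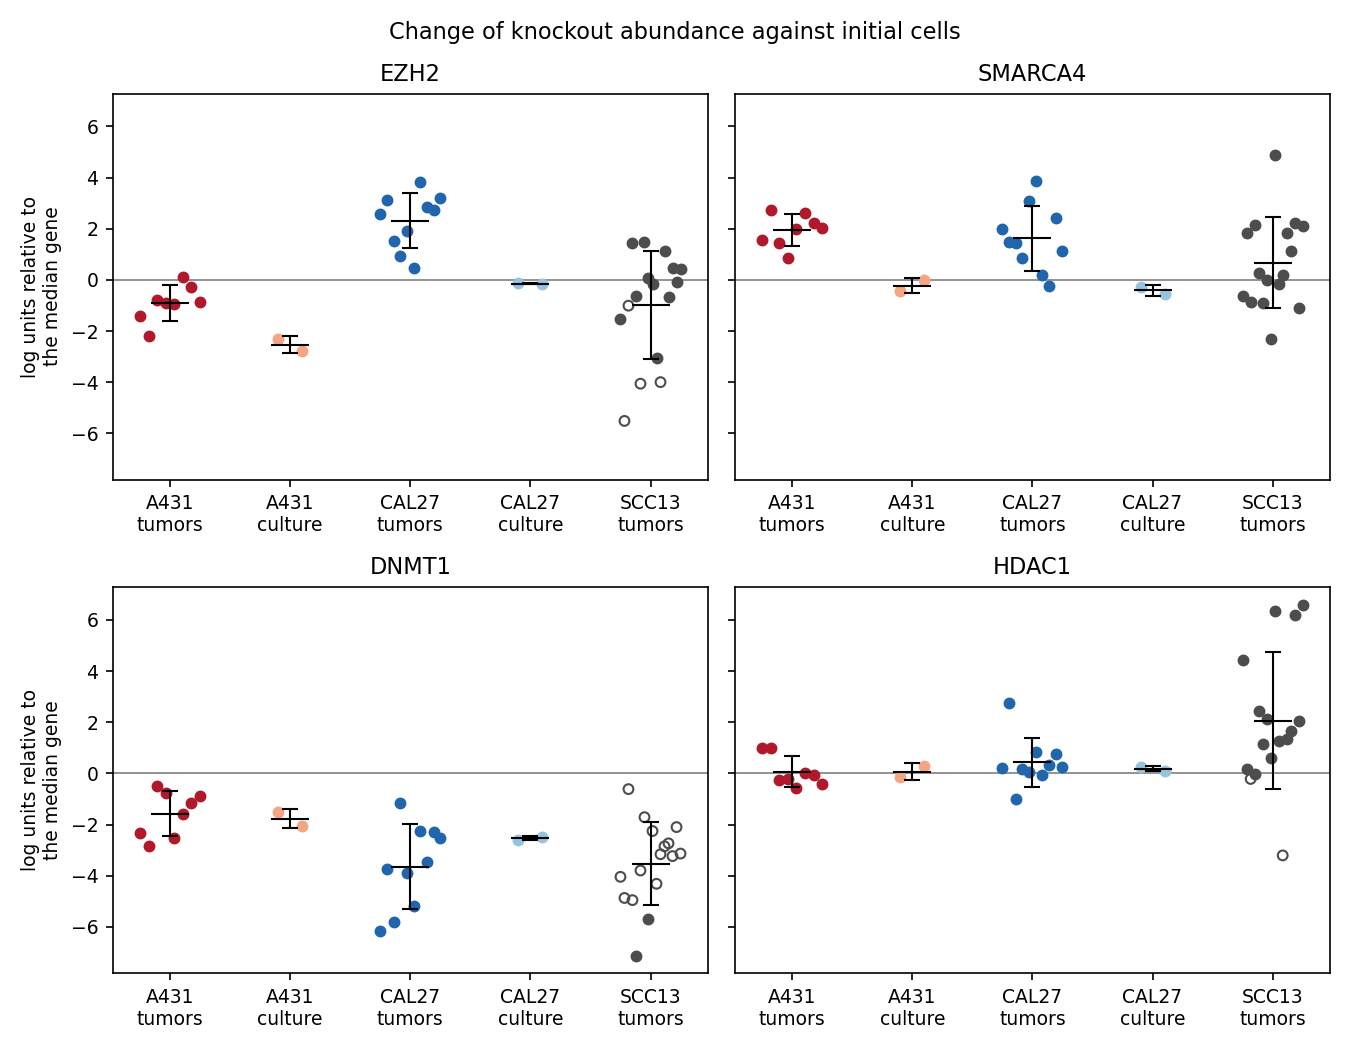
Change of knockout abundance against the initial cells for EZH2, SMARCA4, DNMT1 and HDAC1, in log units relative to the median gene (vertical axis), by group (horizontal axis). Each point is 1 value column, open points are at the floor, and the black marks give the mean ± SD. EZH2 stands at -2.53 in A431 culture and at 2.31 in CAL27 tumors, SMARCA4 is above 0 in all 8 A431 tumors, and DNMT1 is below 0 in every column.

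EZH2 averaged -0.90 ± 0.69 in A431 tumors (SD, n = 8) and -2.53 ± 0.33 in A431 culture (n = 2), a difference of 1.63 log units. In CAL27 it averaged 2.31 ± 1.07 in tumors (n = 10) and -0.15 ± 0.02 in culture (n = 2), a difference of 2.46. Tumor and culture columns did not overlap in either line. All tumors lay above all cultures for 6.73% of genes in A431 and for 6.12% in CAL27. For none of the 4 enzymes did all tumors lie below all cultures, as 2.45% of genes did in A431 and 2.45% in CAL27. As deposited, 9 of 10 CAL27 tumors lay above both cultures and 1 below them, and the A431 groups still did not overlap.

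Between lines, EZH2 was 3.22 log units higher in CAL27 tumors than in A431 tumors, and all 10 CAL27 tumors lay above all 8 A431 tumors. That held for 0.612% of genes. As deposited, 9 of the 10 did so and 1 lay within the A431 range. The CAL27 cultures also lay above the A431 cultures, by 2.38 log units, which 23.2% of genes shared. The mean of EZH2 over the 5 tables spanned 4.85 log units, the 2nd widest span of all genes, against 1.45 for the median gene. In units of each column's SD over genes the span was 6.48, the widest of all, against 1.04.

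In SCC13 tumors EZH2 was uneven. Columns 2, 6, 10 and 11 stood at -5.51, -4.06, -3.04 and -4.00 log units, while the other 12 lay between -1.51 and 1.48. Columns 2, 3, 6 and 11 were at the floor. The mean was -0.98 ± 2.11 (SD, n = 16), and -0.09 ± 1.29 over the 12 tumors in which EZH2 was not at the floor. Columns 2, 6 and 11 held its lowest values, so leaving out columns at the floor raises the mean by selection. SCC13 and A431 tumors overlapped, and their difference of -0.08 log units was smaller than the SD of either group. Of the 16 SCC13 tumors, 12 lay below every CAL27 tumor and 4 within the CAL27 range, and the means differed by -3.29.

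SMARCA4 had the highest mean of all genes in A431 tumors and was high in CAL27 tumors, but not in culture of either line. The 8 A431 tumors ran from 0.87 to 2.72 log units with a median of 2.02, all above the median gene, which 5.81% of genes were. The 2 A431 cultures stood at -0.44 and -0.02. The 10 CAL27 tumors ran from -0.25 to 3.86 with a median of 1.46, and 9 of them lay above the median gene. The CAL27 cultures stood at -0.26 and -0.56. In SCC13 tumors the range was -2.30 to 4.90 with a median of 0.24, with 9 tumors above the median gene, 6 below it and 1 in which SMARCA4 was itself the median gene.

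The tumor and culture values of SMARCA4 did not overlap in A431 or in CAL27. It averaged 1.94 ± 0.62 in A431 tumors (SD, n = 8) and -0.23 ± 0.30 in A431 culture (n = 2), a difference of 2.17, the largest of all genes in that line. In CAL27 it averaged 1.62 ± 1.27 in tumors (n = 10) and -0.41 ± 0.22 in culture (n = 2), a difference of 2.03, the 11th largest. EZH2 had the 3rd largest difference in A431 and the 5th largest in CAL27. As deposited, SMARCA4 still stood above 0 in 8 of 8 A431 tumors, at 1.66 ± 0.74, and in 8 of 10 CAL27 tumors, at 0.81 ± 1.12. The other 2 CAL27 tumors then lay within the range of the cultures.

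**Figure D2:**
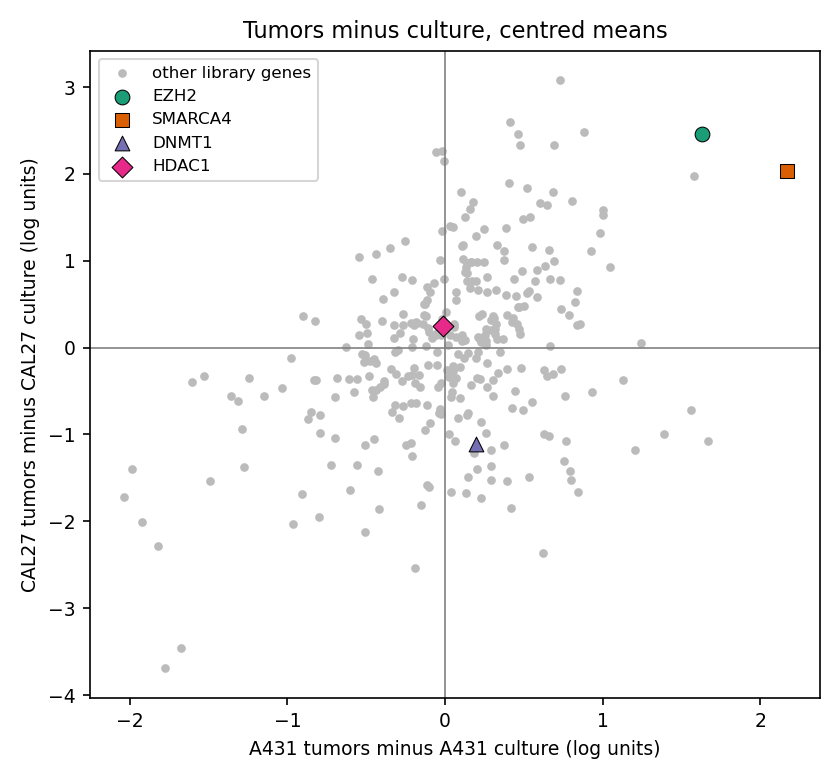
Difference of mean centred values, tumors minus culture, in A431 (horizontal axis) and CAL27 (vertical axis), in log units. Each point is 1 of the 327 genes, with the chromatin enzymes marked; EZH2 (1.63 and 2.46) and SMARCA4 (2.17 and 2.03) lie at the upper right, DNMT1 at 0.20 and -1.11, and HDAC1 near the centre at -0.01 and 0.25.

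Across lines the tumor values of SMARCA4 overlapped. CAL27 and A431 tumors differed by -0.31 log units, less than the SD of either group. As deposited the difference was -0.85, with SDs of 1.12 in CAL27 and 0.74 in A431. In units of each column's SD over genes it was -1.17, more than the SD of either group (0.88 and 0.69). On that scale 6 of the 10 CAL27 tumors lay below every A431 tumor. SCC13 tumors averaged 0.67 ± 1.78 (n = 16), a difference of -1.27 from A431 tumors and of -0.95 from CAL27 tumors, and 9 of 16 lay below every A431 tumor. Relative to the non-targeting guides the SCC13 mean was -0.95, so its sign rests on the choice of reference. Column 9, at 4.90, raised the SCC13 mean, which was 0.39 without it.

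DNMT1 was below the median gene in all 38 columns and was the lowest of the 4 enzymes in 30 of them. The 8 A431 tumors ran from -2.85 to -0.50 log units with a median of -1.36, and the 2 A431 cultures stood at -1.5 and -2.04. The 10 CAL27 tumors ran from -6.16 to -1.16 with a median of -3.59, and the CAL27 cultures stood at -2.58 and -2.47. The 16 SCC13 tumors ran from -7.12 to -0.61 with a median of -3.20. Genes below the median gene in every column made up 6.12% in A431 tumors, 11.3% in CAL27 tumors, 2.75% in SCC13 tumors, 35.8% in A431 culture and 40.1% in CAL27 culture. By its mean, DNMT1 was the 13th lowest gene in A431 tumors, the 6th in CAL27 tumors, the 2nd in SCC13 tumors and the 4th in culture of both lines. The SCC13 rank rests mostly on bounds, as 14 of the 16 values were at the floor.

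DNMT1 tumors and cultures overlapped in log units. It averaged -1.57 ± 0.89 in A431 tumors (SD, n = 8) and -1.77 ± 0.38 in A431 culture (n = 2). In CAL27 it averaged -3.64 ± 1.66 in tumors (n = 10) and -2.53 ± 0.08 in culture (n = 2), and 6 tumors lay below both cultures, 3 above and 1 between. In units of each column's SD over genes the order in CAL27 was the other way, -2.19 in tumors and -4.35 in culture, with all 10 tumors above both cultures. The sign of this difference thus depends on whether the wider spread of tumor columns is divided out.

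The DNMT1 mean of CAL27 tumors differed by -2.07 log units from that of A431 tumors, and 6 of the 10 lay below every A431 tumor. In units of each column's SD over genes the difference was -0.50, less than the SD of either group (0.99 and 0.86). On that scale 2 CAL27 tumors lay below every A431 tumor, 1 above and 7 within their range. The CAL27 cultures lay below the A431 cultures, with a mean difference of -0.76 that 32.7% of genes shared in direction and lack of overlap. In SCC13 tumors the mean was -3.53 ± 1.62 (n = 16). The 2 SCC13 tumors in which DNMT1 was not at the floor, columns 5 and 8, were the lowest, at -7.12 and -5.68, and they had the fewest genes at the floor of all SCC13 columns, 13 and 8. The other 14 values, from -4.95 to -0.61, are bounds, so the depth of the loss in those tumors is not known.

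HDAC1 lay near the median gene in A431 and CAL27, in tumors as in culture, and was high in part of the SCC13 tumors. The A431 tumors ran from -0.57 to 1.01 log units with a median of -0.14, and the A431 cultures stood at -0.16 and 0.31. In A431 column 1 its deposited value, 0.72, was exactly that of 5 other genes. The CAL27 tumors ran from -1.0 to 2.74 with a median of 0.23, and the CAL27 cultures stood at 0.25 and 0.11, both above the median gene as 39.8% of genes were. Tumors and culture overlapped in both lines, with differences of -0.01 in A431 and 0.25 in CAL27. Neither has a settled sign, as they were 0.08 in A431 and -0.08 in CAL27 as deposited. Without column 2 the CAL27 tumor mean was 0.17, against 0.43 with it, and the difference from culture -0.0054. As deposited, HDAC1 averaged between -0.39 and -0.21 in these 4 groups, so the sign of its mean depends on the reference in all 4.

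The 16 SCC13 tumors ran from -3.20 to 6.60 log units in HDAC1 with a median of 1.5, and 13 of them lay above the median gene. None of the 4 enzymes lay above it in all 16, which 4.28% of genes did. Columns 1, 9, 14 and 16 stood at 4.43, 6.37, 6.21 and 6.60, the other 12 at 2.44 or below. HDAC1 was the highest of all 327 genes in column 16 and the 2nd highest in column 14, the pair of tumors that resembled each other most. Columns 3 and 11, at -0.22 and -3.20, were at the floor. The mean was 2.06 ± 2.67 (n = 16), 2.00 above A431 tumors and 1.63 above CAL27 tumors, with overlap in both cases. With columns 14 and 16 averaged as 1 tumor it was 1.77. As deposited it was 0.44 ± 2.47, with 8 tumors above the non-targeting guides and 8 below. The differences from A431 and CAL27 tumors were 0.89 and 0.64 in units of each column's SD over genes. On that scale the SD over tumors was 1.13 in SCC13, 0.69 in A431 and 0.51 in CAL27. The span of the HDAC1 table means was then 0.89, the 196th widest, against 1.04 for the median gene.

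**Figure D3:**
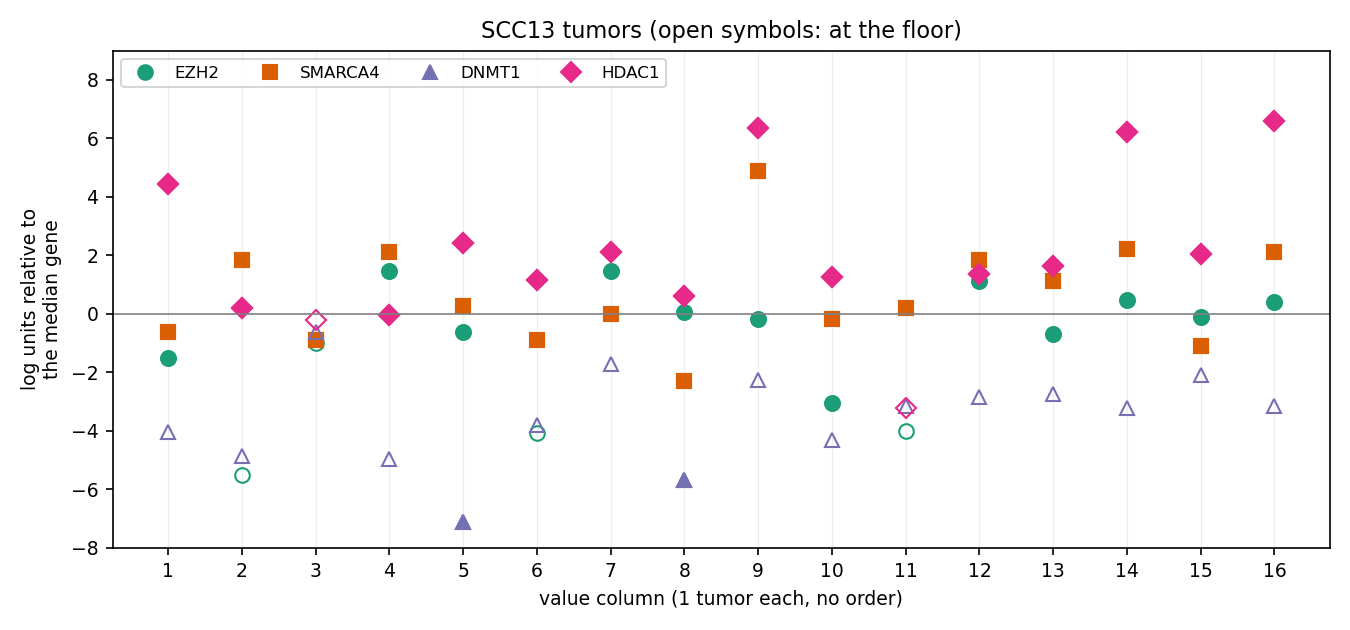
The 4 enzymes in each of the 16 SCC13 tumors, in log units relative to the median gene (vertical axis), by value column (horizontal axis, columns have no order). Open symbols are at the floor; HDAC1 reaches 6.37, 6.21 and 6.60 in columns 9, 14 and 16, EZH2 is at or below -3.04 in columns 2, 6, 10 and 11, and DNMT1 is filled only in columns 5 and 8.

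Differences between 2 enzymes within a column do not depend on the reference. SMARCA4 was above DNMT1 in 37 of 38 columns and HDAC1 above DNMT1 in 37 of 38, the exceptions being SCC13 column 3 for SMARCA4 and SCC13 column 11 for HDAC1, where DNMT1 was at the floor. EZH2 was below SMARCA4 in 8 of 8 A431 tumors, with a mean difference of -2.84 ± 0.93 log units, and in both A431 cultures. In CAL27 it was above SMARCA4 in 8 of 10 tumors and both cultures, and in SCC13 below it in 13 of 16 tumors. EZH2 was above DNMT1 in 10 of 10 CAL27 tumors, with a mean difference of 5.96 ± 1.71, and below it in both A431 cultures. SMARCA4 was the highest of the 4 in 8 of 8 A431 tumors, EZH2 in 8 of 10 CAL27 tumors, and HDAC1 in 12 of 16 SCC13 tumors and all 4 cultures.

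Over the 38 columns the 4 enzymes showed little common variation. Pearson correlations between pairs of them ran from -0.11 to 0.22, and from -0.07 to 0.42 after each table's mean was subtracted. All columns of 1 table were set against the same initial samples, so these are descriptions. Genes at the floor share exact differences between SCC13 tumors by definition, and DNMT1 was there in 14 of 16. The part of r that comes from the floor was not separated. The gene most like DNMT1 was MCM7, a subunit of the replicative helicase (r = 0.77), followed by BTF3 (0.74) and GINS2, a subunit of the GINS replication complex (0.70). For HDAC1 it was TRIM28, a corepressor scaffold (0.64), then CREB1 (0.63) and PYCARD (0.62). TIMP1 (0.61), LYPD3 (0.58) and HMGB1 (0.58) were most like EZH2, and CTSV (0.50), CYB5A (0.40) and COL7A1 (0.40) most like SMARCA4. With table means subtracted the leading genes were TUBB (0.77), ACTB (0.75) and POLR2A (0.73) for DNMT1, TRIM28 (0.62), PDPN (0.59) and PYCARD (0.59) for HDAC1, TIMP1 (0.64), PYCARD (0.62) and LYPD3 (0.55) for EZH2, and COL7A1 (0.50), VIM (0.50) and PDPN (0.49) for SMARCA4.

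None of the other Polycomb, SWI/SNF or DNA methylation genes looked for was among the 327 genes analysed here. HELLS, a helicase of the SNF2 family that assists DNA methylation, was among them and was chosen after its values were seen. It averaged 0.28, 0.13 and 1.03 log units in A431, CAL27 and SCC13 tumors and 0.02 and 0.05 in A431 and CAL27 culture. None of these passed the threshold of 0.05 in limma (adjusted p = 0.445, 0.788, 0.0578, 0.922 and 0.736).

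Of 4 measured genes listed under histone deacetylation and corepressors (RCOR1, REST, SAP30 and ID2), calls were made in SCC13 tumors and in CAL27 culture. Here and below, rose and fell mean above and below the median gene, which itself lay below the non-targeting guides in most columns. In SCC13 tumors RCOR1, the scaffold of CoREST, fell to -1.99 ± 1.86 log units (SD, n = 16, 13 of 16 tumors below, limma adjusted p = 0.000206), where 23.9% of all genes fell. REST, a repressor that recruits CoREST, rose to 2.23 ± 1.52 (15 of 16 tumors above, adjusted p = 1.99e-05), where 23.5% rose. SAP30 of the Sin3 complex, at -0.03, and ID2, at -0.68, did not pass. In A431 tumors none of the 4 passed (adjusted p from 0.278 to 0.816), nor in CAL27 tumors (0.0884 to 0.913). In CAL27 culture REST and ID2 rose, both to 0.45 (adjusted p = 0.0402 and 0.0403), where 4.89% of genes rose, and in A431 culture none passed (0.181 to 0.312). The REST and ID2 means in CAL27 culture did not lie above the non-targeting guides. As deposited, the median gene stood at -0.47 and -0.49 in those cultures. TRIM28, from the separate list of other histone modifiers and readers, rose in CAL27 tumors to 1.11 (adjusted p = 0.00914) and in SCC13 tumors to 1.25 (adjusted p = 0.017). The TRIM28 mean in SCC13 tumors lay below the non-targeting guides. KDM5A, a histone demethylase, rose in CAL27 tumors to 0.99 (adjusted p = 0.0272), where 18.7% of genes rose.

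Of 9 histone, histone chaperone and architectural genes, DNAJC9 and SMC4 fell in tumors of all 3 lines. DNAJC9, a histone chaperone, stood at -1.24, -1.43 and -3.66 log units in A431, CAL27 and SCC13 tumors (limma adjusted p = 0.00459, 0.0251 and 8.32e-10). SMC4, a condensin subunit, stood at -1.97, -3.91 and -1.43 (adjusted p = 0.000805, 9.3e-08 and 0.00547). In A431 tumors 2 of the 9 fell and none rose, where 11.9% of genes fell and 7.95% rose. In CAL27 tumors 3 fell, where 22% of genes did, and 2 rose, HMGB1 (1.26) and HIST1H4C (2.21). In SCC13 tumors 3 fell and H2AFZ rose (1.06), where 23.9% of all genes fell and 23.5% rose. The H2AFZ mean there still lay below the non-targeting guides. In culture, DNAJC9 alone fell in A431, where 11.3% of genes fell. In CAL27 culture DNAJC9 and SMC4 fell, where 18.7% of genes did, while HIST1H4C and HMGB2 rose, where 4.89% did. Neither the HIST1H4C nor the HMGB2 mean in CAL27 culture lay above the non-targeting guides.

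DNMT1 works at the replication fork. Of 11 measured genes of the fork and of nucleotide supply, 4 fell in A431 tumors, 9 in CAL27 tumors, 8 in SCC13 tumors, 7 in A431 culture and 9 in CAL27 culture, by limma at an adjusted p under 0.05. Of all genes, 11.9% fell in A431 tumors, 22% in CAL27 tumors, 23.9% in SCC13 tumors, 11.3% in A431 culture and 18.7% in CAL27 culture. TK1, a thymidine salvage kinase, was the 1 member that rose, to 1.11 in CAL27 tumors. The median of the 11 means was -0.60, -2.31 and -2.05 log units in A431, CAL27 and SCC13 tumors and -0.98 and -1.52 in A431 and CAL27 culture, against medians between -0.02 and 0.02 over all genes. DNMT1 lay below this median in each of the 5 groups. FEN1, the flap endonuclease, and MCM5, a helicase subunit, fell in tumors of all 3 lines. The lowest mean past the threshold was that of MCM5 in A431 tumors (-2.22) and that of DUT, which clears dUTP, in CAL27 tumors (-5.36), SCC13 tumors (-3.51), A431 culture (-2.13) and CAL27 culture (-3.00).

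Of 7 genes of the Rb, E2F and INK4 axis, which EZH2 is known to touch through silencing of the INK4 locus, CDKN2B rose in CAL27 tumors to 1.45 ± 1.05 log units (limma adjusted p = 0.00173) and in SCC13 tumors to 7.72 ± 2.73 (adjusted p = 1.71e-24). In A431 tumors E2F1 (0.69) and E2F8 (0.95) rose, where 7.95% of all genes rose, and CDKN2B, at 0.46, did not pass. In CAL27 tumors E2F1 rose to 1.81 and MYC fell to -2.48, so that 2 of the 7 rose and 1 fell. Of all genes, 18.7% rose and 22% fell there. In SCC13 tumors E2F8 rose to 1.38, while MYBL2 fell to -1.81 and MYC to -1.28, so that 2 of the 7 rose and 2 fell. These counts are near the shares over all genes, 23.5% and 23.9%. The E2F8 mean in SCC13 tumors lay below the non-targeting guides. In culture MYC fell in both lines, E2F7 rose in A431 (0.69), where 2.14% of all genes rose, and E2F1 and MYBL2 fell in CAL27. Of all genes, 11.3% fell in A431 culture and 18.7% in CAL27 culture.

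The differences between groups were also fitted for the listed genes. Between CAL27 and A431 tumors, 11.6% of all genes were lower in CAL27 and 7.95% higher, and of the 11 replication genes 5 were lower and 2 higher, TYMS and TK1. Between SCC13 and A431 tumors, 7.65% were lower in SCC13 and 7.95% higher, and of the 11 genes 4 were lower and PCNA was higher. REST was 2.16 log units higher in SCC13 than in A431 tumors (limma adjusted p = 0.016), while for RCOR1 the difference of -1.79 did not pass (adjusted p = 0.0642). CDKN2B was 7.25 higher in SCC13 than in A431 tumors and 6.26 higher than in CAL27 tumors (adjusted p = 2.66e-10 and 5.57e-10). Between SCC13 and CAL27 tumors 6.12% of genes were lower and 6.12% higher, and of the 11 genes TYMS was lower and PCNA higher. In CAL27 against A431 culture 2.75% of genes were lower and 0.306% higher, and PCNA, MCM5, MYC and MYBL2 were the listed genes called, all lower. These 10 calls over all genes came down to 0 or 1 when any 1 of the 4 cultures was left out. Between tumors and culture limma called 0 of 327 genes in A431 and 0 in CAL27, with 20 and 30 genes at an unadjusted p under 0.05 and 31 and 94 genes called with column weights.

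**Figure D4:**
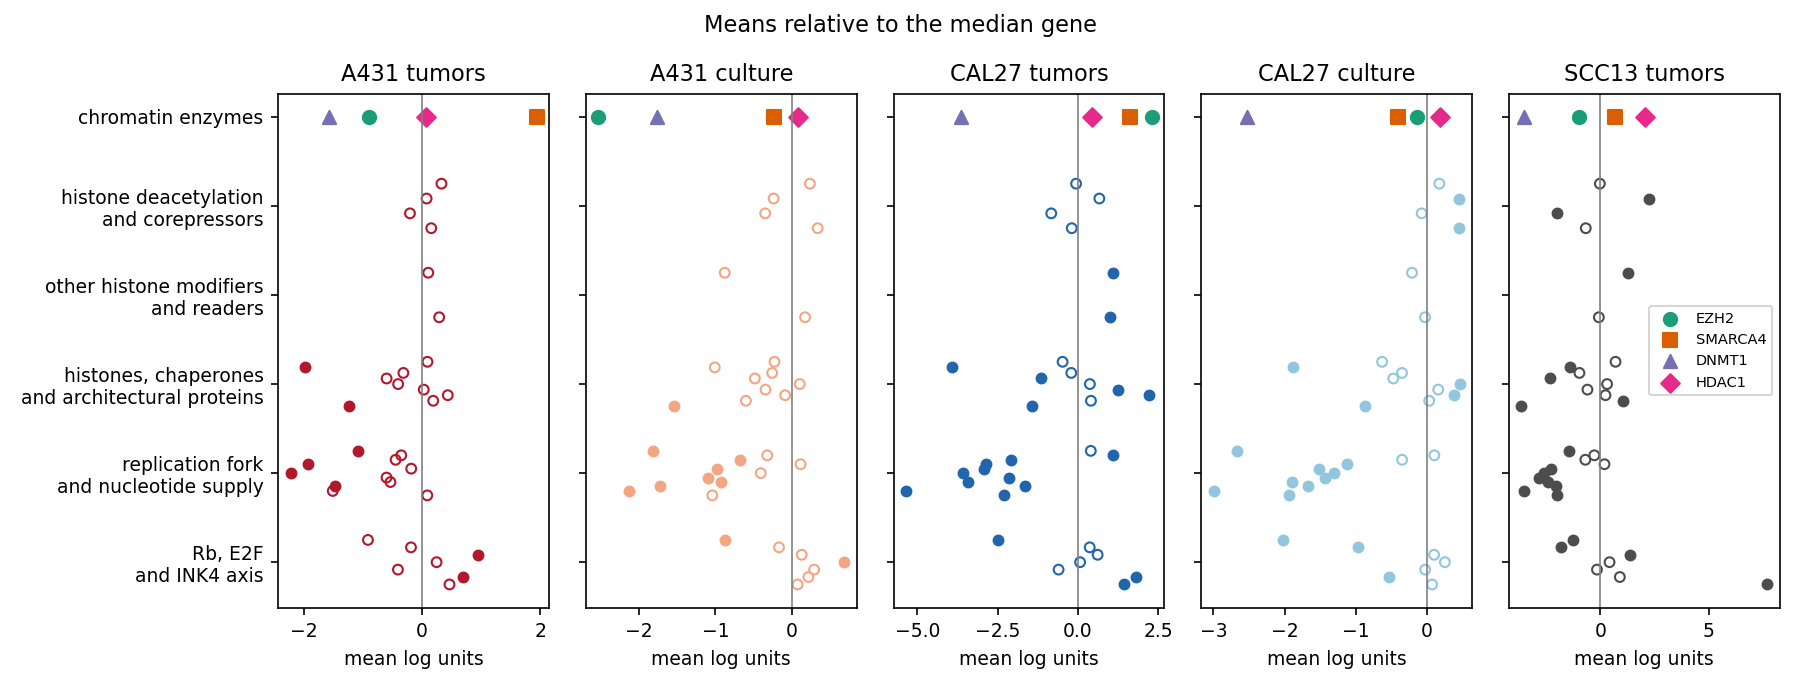
Means in log units relative to the median gene (horizontal axis, scaled separately in each panel) of the 4 chromatin enzymes and of the measured genes of 5 lists (vertical axis), by group. Filled circles passed limma at an adjusted p under 0.05 and open circles did not; the replication list lies mostly left of 0, with medians from -2.31 in CAL27 tumors to -0.60 in A431 tumors, and DNMT1 lies left of each of those medians.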

How the data were processed

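Guide abundance was sequenced from genomic DNA of 48 samples in 10 groups. The submitters' processing notes name Bowtie2. For its version, the genome build, the log base, the pseudocount and the guide summary, the sources used here give nothing. The authors deposited 5 tables of log fold changes per gene (327 genes and 1 row of non-targeting guides), with 38 value columns that carry no replicate numbers. The series design states 334 genes and 136 non-targeting guides.

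Each column was centred on its median over genes. Groups were fitted on all genes with limma 3.58.1 in R 4.3.3 (lmFit, eBayes), against 0 or as a difference of 2 groups, with Benjamini-Hochberg adjustment at 0.05, and the fits were tested on simulated data. The initial cells' own error enters no test, and the p-values reflect the spread among later samples alone, which may be technical. Tables of 2 groups are compared as if they share a log base.

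The members and lists were chosen with earlier results of these data known. Named are the 4 enzymes, per list the lowest and highest means past the threshold in a table and genes called in tumors of all 3 lines, and the 3 genes most like each enzyme. Some other list genes, called or not, are also named outside this rule, and HELLS was added after its values were seen.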

Additional observations from a re-analysis of the deposited data

Results flagged for a closer look

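Of 8 sets of 8 or 10 tumors examined for the 4 enzymes, 1 held a tumor far from the others: HDAC1 stood at 2.74 log units in CAL27 value column 2, where the next highest tumor stood at 0.82. The rule marks about 1 in 20 sets of normally spread values. As the 4 genes were chosen with their values known, that rate cannot be applied here, and the mark is a description with no test.

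In 2 comparisons every tumor lay on one side of the median gene and every culture on the other. EZH2 was above the median gene in 10 of 10 CAL27 tumors and below it in both CAL27 cultures, a difference of 2.46. SMARCA4 was above it in 8 of 8 A431 tumors and below it in both A431 cultures, a difference of 2.17. Of all genes, 6.73% had every CAL27 tumor above the median gene and 40.1% had both CAL27 cultures below it. In A431 these shares were 5.81% and 35.8%. The share of genes with both traits was not counted. The differences of EZH2 and SMARCA4 were not tested, since both genes were chosen with their values known.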

How the results depend on the processing

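No paired analysis was possible because the value columns carry no replicate numbers. For the 4 enzymes, 20 means and 24 differences between groups were recomputed. With the deposited values, EZH2 stood at -2.89 in A431 culture and -0.63 in CAL27 culture, SMARCA4 at -0.59 and -0.89, DNMT1 at -3.01 in CAL27 culture and -5.15 in SCC13 tumors, and HDAC1 at -0.29 in A431 culture and -0.31 in CAL27 culture, where both columns changed sign. The SCC13 minus A431 tumor difference became -2.61 for SMARCA4 and -3.31 for DNMT1. Centred on the trimmed mean, EZH2 was -0.0589 and DNMT1 -2.44 in CAL27 culture. Without columns at the floor DNMT1 was -6.40 in SCC13 tumors (2 tumors), and its difference was -4.83 from A431 and -2.76 from CAL27 tumors; fewer tumors are averaged there. In SD units 4 differences changed sign: EZH2 and DNMT1 in SCC13 minus A431 tumors (0.74 and 0.16), DNMT1 in CAL27 tumors minus culture (2.16) and HDAC1 in CAL27 tumors minus culture (-0.0527). As deposited the sign also turned for HDAC1 in CAL27 minus A431 tumors (-0.17), tumors minus culture in A431 (0.08) and CAL27 (-0.08) and CAL27 minus A431 culture (-0.02), and for DNMT1 in SCC13 minus CAL27 tumors (-0.70, and -0.09 without SCC13 column 3). EZH2 in SCC13 minus A431 tumors was 0.47 by medians and 0.81 without columns at the floor, which drops its lowest SCC13 values. Leaving out 1 column turned the sign of the 6 differences just named except HDAC1 in CAL27 minus A431 tumors, and of DNMT1 in A431 tumors minus culture (-0.07 at its lowest) and SMARCA4 in CAL27 minus A431 culture (0.03 at its highest). The groups overlapped in all of these 8, and no direction is read from them. Spearman's rho was 0.46 for EZH2 with TIMP1 and 0.43 for HDAC1 with TRIM28. The cause of these changes was not tested.

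Counts of genes called moved more. As deposited they were 233 in SCC13 tumors (220 lower, 13 higher, against 78 and 77), 137 in A431 culture (136 and 1, against 37 and 7), 293 in CAL27 culture (293 and 0, against 61 and 16), 105 in SCC13 against A431 tumors (102 and 3, against 25 and 26) and 22 in CAL27 against A431 culture. In A431 tumors the split was 73 and 7 against 39 and 26, in CAL27 tumors 164 and 18 against 72 and 61, in CAL27 against A431 tumors 61 and 5 against 38 and 26, and in SCC13 against CAL27 tumors 46 and 9 against 20 and 20. With a trended, robust eBayes CAL27 culture had 128. Tumors against culture gave 0 genes by limma in A431 and CAL27 (20 and 30 at an unadjusted p under 0.05), 16 and 8 in SD units and 31 and 94 with column weights. In SD units the counts were 36 in CAL27 against A431 tumors, 32 in SCC13 against A431 tumors and 2 in CAL27 against A431 culture. With column weights they were 90 in SCC13 against A431 tumors and 61 against CAL27 tumors. Leaving out 1 column gave 39 to 53 in A431 tumors, 0 to 1 in A431 tumors against culture and 0 to 1 in CAL27 against A431 culture, against 65, 0 and 10. The A431 tumor count was 41, 39 and 41 without value columns 1, 4 and 7. Genes with no overlap numbered 50 in A431 tumors against culture in SD units (30 otherwise), 6 in CAL27 against A431 tumors as deposited (3 otherwise), and 1 under both alternatives in SCC13 against A431 or CAL27 tumors (2 otherwise).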
